A study of Mus musculus with 26 samples.

Results

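Proprioceptors are the DRG sensory neurons that report muscle length and tension, and a set of genes serves as their markers in the mature mouse. A marker of this kind need not be absent from other DRG neurons. The 9 genes described here were taken as such markers: *Pvalb*, *Calb1*, *Calb2*, *Pcp4*, *Whrn*, *Crtac1*, *Heg1*, *Spp1* and *Fxyd7*. They were taken by name, and every consensus peak was kept whose midpoint lay in the gene body annotated by GENCODE or within 100 kb of it. The 9 windows held 252 peaks, out of 159182 analysed in the 5 lists and with 9 of 21938 protein-coding genes at their centers, and no peak fell into more than 1 window. The question was which genes of the later proprioceptor are already open, acetylated or bound by Runx3, Brn3a and Isl1 in TrkC neurons at E11.5. Expression was not measured in these lists, so the name of the set is background and could not be checked here.

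All lists came from 26 samples of E11.5 TrkC neurons of mouse embryos on a Cb6F1 background. The embryos carried BAC-E-GFP, a transgene in which GFP is fused into *Runx3* within a long stretch of the *Runx3* locus, and the DRG of several embryos, mainly cervical, were pooled for each sample. FACS for GFP gave the cells of most experiments, and magnetic beads those of others, for which WT embryos also served. The groups therefore share the age, cells of the transgenic embryos carry extra copies of the *Runx3* locus, and none is a mutant or a later stage. Open chromatin was mapped by ATAC-seq in 3 samples of 50000 cells, and CUT&RUN, in which an antibody-bound nuclease releases the DNA near its target, was done for H3K27Ac in 5, Runx3 in 8, Brn3a in 2 and Isl1 in 3 samples, with Normal Rabbit Serum as the control in 5. The lists hold positions, a count of RBS (the Runx binding site) for Runx3 peaks and a mark for the motifs V$BRNF in Brn3a peaks and V$LHXF in Isl1 peaks. They hold no reads, scores or values per sample, so depth and the spread between samples are unknown, and counts are set beside those of all protein-coding genes or of the whole list without a test. Intervals are 95% Wilson intervals and cover counting error only.

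Proprioceptors descend from DRG neurons that express TrkC, the receptor of neurotrophin 3, and the TF Runx3. Brn3a and Isl1 are homeodomain TFs that most DRG neurons express as they leave the cell cycle. An ATAC peak marks DNA that a transposase can reach, and H3K27Ac is a histone mark of active promoters and enhancers. Of the 9 genes, *Pvalb*, *Calb1* and *Calb2* encode the EF-hand calcium-binding proteins parvalbumin, calbindin and calretinin, and *Pcp4* a small protein of calcium signaling. *Whrn* encodes whirlin, a PDZ scaffold protein, *Crtac1* a secreted matrix protein, *Heg1* a transmembrane protein known from heart and vessel development, *Spp1* the secreted phosphoprotein osteopontin, and *Fxyd7* a small membrane protein that regulates the Na,K-ATPase.

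The promoters of 7 of the 9 genes were already open at E11.5. An ATAC peak lay in the gene's own promoter, within 1 kb of the start of any of its transcripts, in *Pvalb*, *Calb1*, *Calb2*, *Pcp4*, *Whrn*, *Crtac1* and *Heg1*, and in neither *Spp1* nor *Fxyd7*. The same was true of 64.8% of all protein-coding genes. The open promoters of 6 of the 7 also carried H3K27Ac (58.3% of all genes had the mark in the promoter, and 57.2% had both), and *Calb1* was the exception. A count of 7 or 6 of 9 is thus near the background of all genes. With only peaks at least as wide as the median of their list, 4 promoters were open (*Calb1*, *Whrn*, *Crtac1* and *Heg1*) and 3 acetylated (*Whrn*, *Crtac1* and *Heg1*). The shares of all genes were not counted with this filter, so these lower counts have no background beside them.

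**Figure D1:**
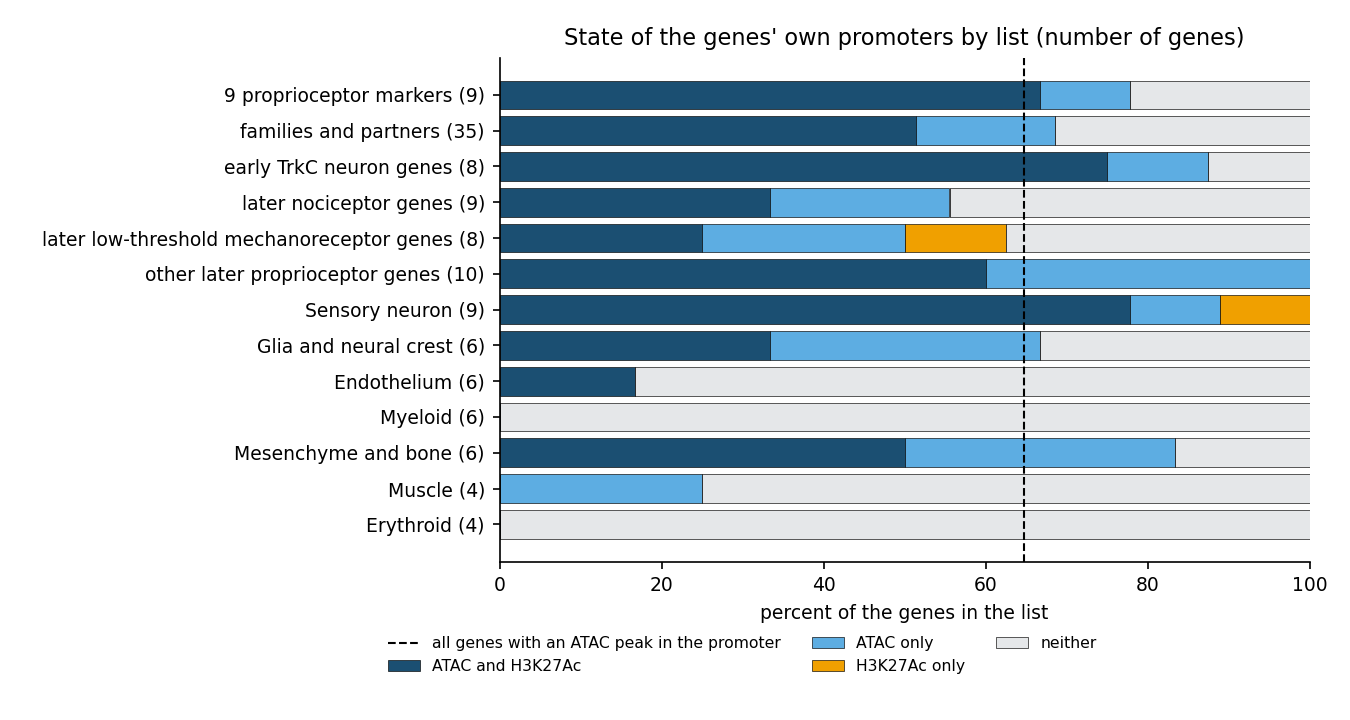
Share of the genes of each list (percent, x axis) whose own promoter held ATAC and H3K27Ac peaks, ATAC only, H3K27Ac only or neither, with the number of genes in parentheses and the share of all protein-coding genes with an open promoter as a dashed line. Of the 9 proprioceptor markers 7 were open and 6 of these acetylated, beside 64.8% of all genes open, and the 6 myeloid and 4 erythroid markers had neither peak.

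TF peaks lay inside 6 of the genes. A Runx3 peak fell in the gene body or promoter of *Pvalb*, *Pcp4*, *Whrn*, *Crtac1*, *Heg1* and *Fxyd7*, which is 6 of 9 where 34.2% of all genes had such a peak. Brn3a peaks were found in the bodies or promoters of *Pvalb*, *Pcp4*, *Whrn* and *Heg1* (4 of 9, against 34.4% of all genes), and Isl1 peaks in those of *Pvalb*, *Pcp4*, *Whrn*, *Crtac1* and *Heg1* (5 of 9, against 18.1%). *Calb1*, *Calb2* and *Spp1* had no peak of any of the 3 TFs in body or promoter. A long gene has more room for a peak, and the bodies of the 9 genes ran from 5.93 kb (*Spp1*) to 149 kb (*Crtac1*). With only TF peaks that carried the marked motif, Runx3 was left in 5 genes, Brn3a in 3 and Isl1 in 4. With only peaks at least as wide as the median of their list, Runx3 was left in 3 (*Pvalb*, *Crtac1* and *Fxyd7*), Brn3a in 3 and Isl1 in 4. The shares of all genes given above are without these filters and were not counted with them.

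Within 100 kb, peaks were common around any gene. All 9 genes had ATAC, H3K27Ac and Runx3 peaks in their windows, where 91.1%, 85.0% and 74.2% of all genes had them. Brn3a peaks were in 7 windows (80.0% of all genes) and Isl1 peaks in 8 (61.8%). The windows without a Brn3a peak were those of *Calb1* and *Calb2*, and *Calb2* also had no Isl1 peak. In all, the windows held 106 ATAC, 63 H3K27Ac, 24 Runx3, 33 Brn3a and 26 Isl1 peaks. Many belonged at least as much to neighboring genes, since 61 of the 252 lay outside the marker gene in the promoter of another and the nearest start of a protein-coding transcript was that of the marker gene for 78.

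**Figure D2:**
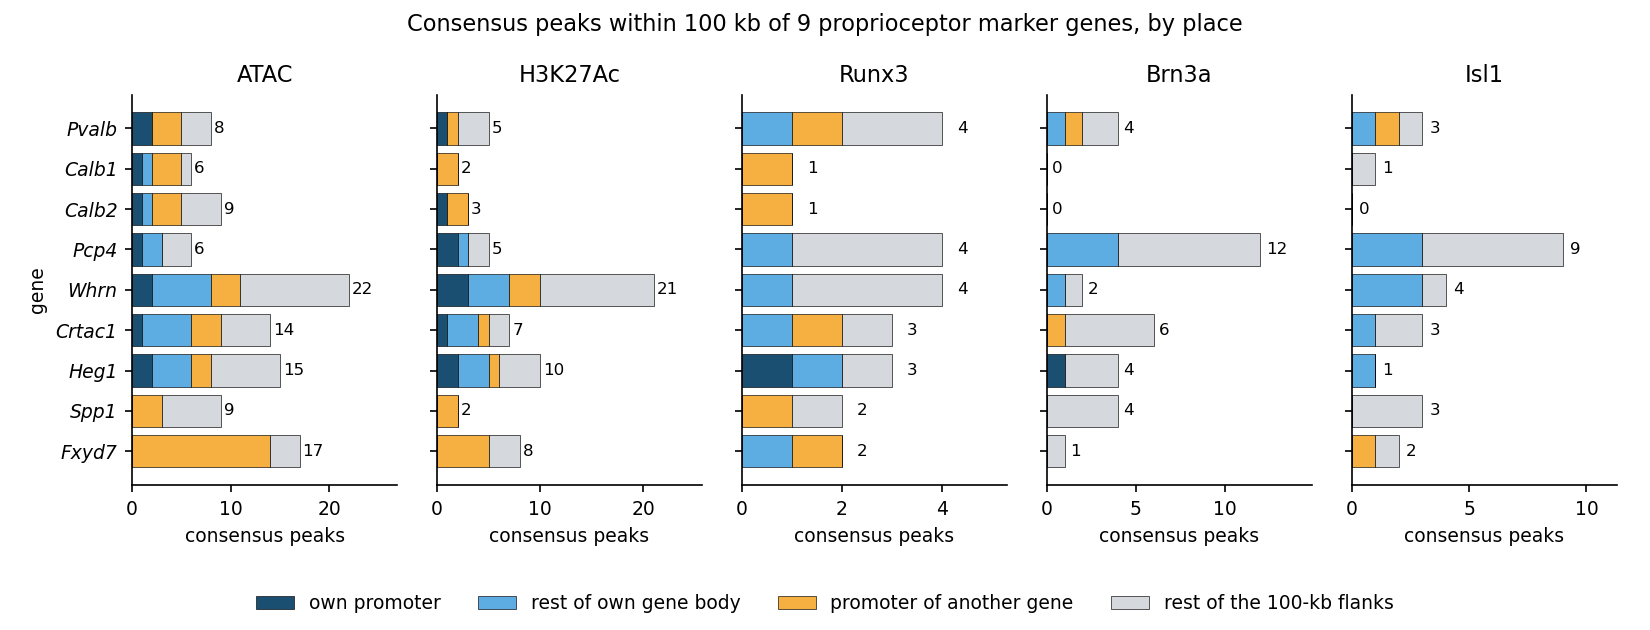
Number of consensus peaks (x axis) in the window of each of the 9 genes (rows), 1 panel a list, colored by whether the midpoint lay in the gene's own promoter, in the rest of its body, in the promoter of another gene or elsewhere in the 100-kb flanks. *Whrn* had the highest counts for ATAC (22) and H3K27Ac (21), *Pcp4* for Brn3a (12) and Isl1 (9), and all 17 ATAC peaks of *Fxyd7* lay outside the gene.

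Scaled to window length, the chromatin around the markers was like that of other genes, and the TF peaks varied widely among them. ATAC peaks ran from 23.2 per Mb (*Pcp4*) to 81.4 per Mb (*Fxyd7*), with a median of 40.1 per Mb beside 38.8 per Mb over all genes, and H3K27Ac had a median of 20.1 per Mb beside 19.7 per Mb. Runx3 peaks had a median of 9.71 per Mb beside 7.96 per Mb, with the highest value at *Pvalb* (18.6 per Mb). For Brn3a the median was 13.9 per Mb beside 9.79 per Mb, and for Isl1 9.57 per Mb beside 4.53 per Mb. The upper quartile over all genes was passed by 5 of the 9 windows for Isl1 and by 2 for Brn3a, 2 for Runx3, 2 for ATAC and 1 for H3K27Ac. For Isl1, 24.9% of all genes passed it. The *Fxyd7* window did so narrowly, with 9.57 per Mb beside a quartile of 9.35 per Mb, on 2 Isl1 peaks outside the gene. *Pcp4* led both homeodomain TFs, with 46.5 Brn3a and 34.9 Isl1 peaks per Mb, and had the fewest ATAC peaks per Mb of the 9.

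**Figure D3:**
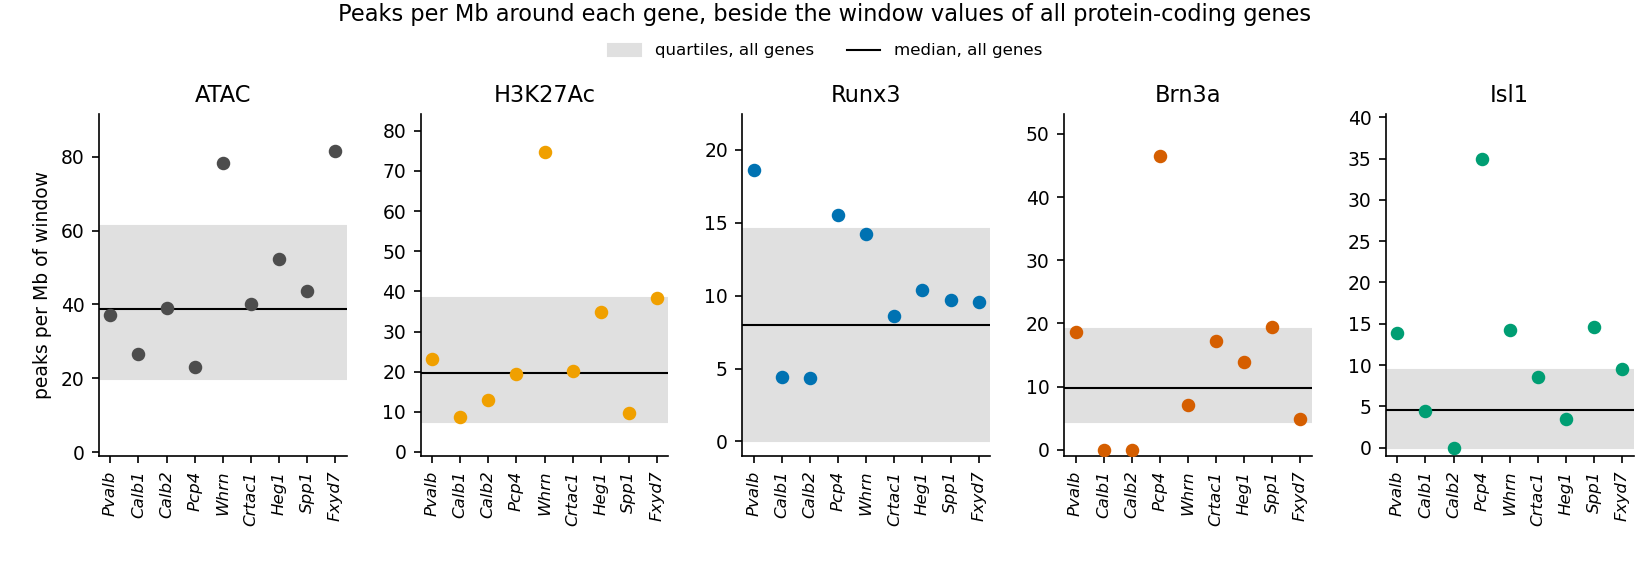
Peaks per Mb of window (y axis) around each of the 9 genes (points), 1 panel a list, with the median of all 21938 protein-coding genes as a line and their quartiles as a grey band. *Pcp4* stands highest for Brn3a (46.5 per Mb) and Isl1 (34.9 per Mb), *Whrn* for H3K27Ac (74.7 per Mb), and *Calb1* and *Calb2* lie at 0 for Brn3a.

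*Pvalb* (chr15:78191114-78206400, minus strand) combined a narrow open start with a closed site of all 3 TFs. Its ATAC peaks in the promoters were 114 bp wide (chr15:78205408-78205521, with H3K27Ac at chr15:78205399-78205608, inside the first intron of the longer transcript) and 175 bp wide (chr15:78204207-78204381, at the start of the shorter transcript and over its UTR). The outer start had no peak over it, and the acetylated peak counted there only because its midpoint was 0.9 kb into the gene. When a promoter ended 100 bp downstream of the start, *Pvalb* no longer counted as acetylated and 5 of the 9 genes did. The TF site lay in intron 2 of the shorter transcript, 4.2 kb from the outer start. Runx3 (chr15:78202053-78202399), Brn3a (chr15:78202154-78202443) and Isl1 (chr15:78202103-78202443) coincided there, each with its marked motif, and neither ATAC nor H3K27Ac did. The stretch shared by the 3 peaks (chr15:78202154-78202399, plus strand, GRCm38.p6) is shown because it is the only such site inside *Pvalb*. Capitals mark, on either strand, the RBS (ACCACA and its variants ACCGCA and GCCACA, with GCCGCA the variant of both), ATTAAT as letters typical of Brn3a sites, and TAATTG or TAATGG as letters typical of LIM-homeodomain sites. Matches of the last kinds can overlap each other.
Pvalb intron 2: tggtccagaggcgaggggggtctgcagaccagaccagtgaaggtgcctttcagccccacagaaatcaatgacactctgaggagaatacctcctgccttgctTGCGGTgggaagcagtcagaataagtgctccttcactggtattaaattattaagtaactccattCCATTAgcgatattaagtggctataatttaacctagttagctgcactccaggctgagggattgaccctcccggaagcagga
It held 1 RBS, read as TGCGGT on the plus strand, and 1 LIM-homeodomain match, read as CCATTA. In windows of 300 bp about the peak centers, an RBS was present in 70.7% of all Runx3 peaks and in 79.2% (59.5–90.8%) of the 24 around the markers, and in 45.2% of 32851 RefSeq promoters of the same length. ATTAAT was present in 24.1% of Brn3a windows, and TAATTG or TAATGG in 52.3% of Isl1 windows, beside 4.75% and 14.8% of the promoters. Windows about all ATAC peaks had them in 6.6% and 19.2%. The letters were not particular to their TF, since ATTAAT was in 18.1% of Isl1 windows and TAATTG or TAATGG in 39.4% of Brn3a windows. These windows are centered on the peaks and differ from them in width, so their shares differ from those of the marks in the lists. The marks V$BRNF and V$LHXF rest on wider motif families than these letters, so a marked peak need not hold a capital.

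Around *Pvalb*, the other Runx3 peaks lay toward *Ift27*, a gene of intraflagellar transport. Another site of all 3 TFs, with Runx3 at chr15:78174011-78174445 and no RBS, was in the promoter of *Ift27*, 32.2 kb downstream of the *Pvalb* start, and was open and acetylated. Runx3 alone, with 2 RBS, was found at chr15:78178249-78178468 (28.0 kb), also open and acetylated. The fourth Runx3 peak, at chr15:78136821-78136902, overlapped Isl1 only, without an RBS, ATAC or H3K27Ac. The closed intron site and the open *Ift27* promoter thus held the same TFs in different chromatin.

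*Pcp4* (chr16:96467606-96525793, plus strand) was the gene with the most TF peaks. Its promoter had a 163-bp ATAC peak (chr16:96467517-96467679) over the first exon with H3K27Ac (chr16:96467553-96467846), and a further H3K27Ac peak (chr16:96498832-96499292) without ATAC lay at an alternative start in intron 2 of the principal transcript. The 25 TF peaks fell into 13 sites, of which 8 held more than 1 TF and 4 all 3 TFs, and 10 of the 13 were closed. In the gene, Brn3a and Isl1 coincided without Runx3 in intron 1 (chr16:96488226-96488441) and intron 2 (chr16:96497651-96497941), both closed. All 3 TFs met in intron 2 at chr16:96500713-96501195, 33.3 kb from the start, where an ATAC peak lay as well and H3K27Ac did not. The Runx3 peak of that site is shown because it has none of the motif letters, although its Brn3a and Isl1 peaks, which extend beyond it, carry the marks V$BRNF and V$LHXF (chr16:96500836-96501113, plus strand, GRCm38.p6).
Pcp4 intron 2: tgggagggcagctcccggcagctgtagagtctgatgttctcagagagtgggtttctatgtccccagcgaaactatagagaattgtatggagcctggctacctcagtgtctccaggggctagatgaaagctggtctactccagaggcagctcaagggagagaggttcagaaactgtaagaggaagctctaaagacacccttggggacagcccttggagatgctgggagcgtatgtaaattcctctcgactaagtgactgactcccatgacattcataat
These sites also lie within the annotated body of *Igsf5*, so they belong to either gene by position. The only other open site in *Pcp4* was in intron 1, 5.0 kb from the start, where an 83-bp ATAC peak (chr16:96472531-96472613) lay in 760 bp of H3K27Ac (chr16:96472396-96473155) without a TF peak.

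A row of shared sites lay beyond the 3' end of *Pcp4*, within the annotated body of *Dscam*, a gene of neuronal cell adhesion. Between 129.4 and 134.7 kb from the *Pcp4* start there were 5 sites of Brn3a and Isl1, and Runx3 joined at 3 of them. The Runx3 peaks were chr16:96599353-96599642 without an RBS, chr16:96600927-96601296 with 2 RBS and chr16:96602099-96602463 with 1 RBS. The first and the third were open and the middle site closed, and none of the 5 carried H3K27Ac. The middle site is shown for its pairs of RBS and ATTAAT, the first of each standing side by side (chr16:96600927-96601226, plus strand, GRCm38.p6).
Pcp4 downstream: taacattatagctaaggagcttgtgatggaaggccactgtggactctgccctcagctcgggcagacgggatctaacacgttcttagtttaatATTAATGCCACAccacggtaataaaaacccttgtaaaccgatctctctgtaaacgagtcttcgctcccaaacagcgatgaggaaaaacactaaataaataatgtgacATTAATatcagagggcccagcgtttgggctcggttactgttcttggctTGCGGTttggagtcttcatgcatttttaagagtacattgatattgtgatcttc
These peaks count for *Pcp4* by distance alone, and with the gene body widened by 1 kb as the window it kept 1 Runx3, 4 Brn3a and 3 Isl1 peaks.

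**Figure D4:**
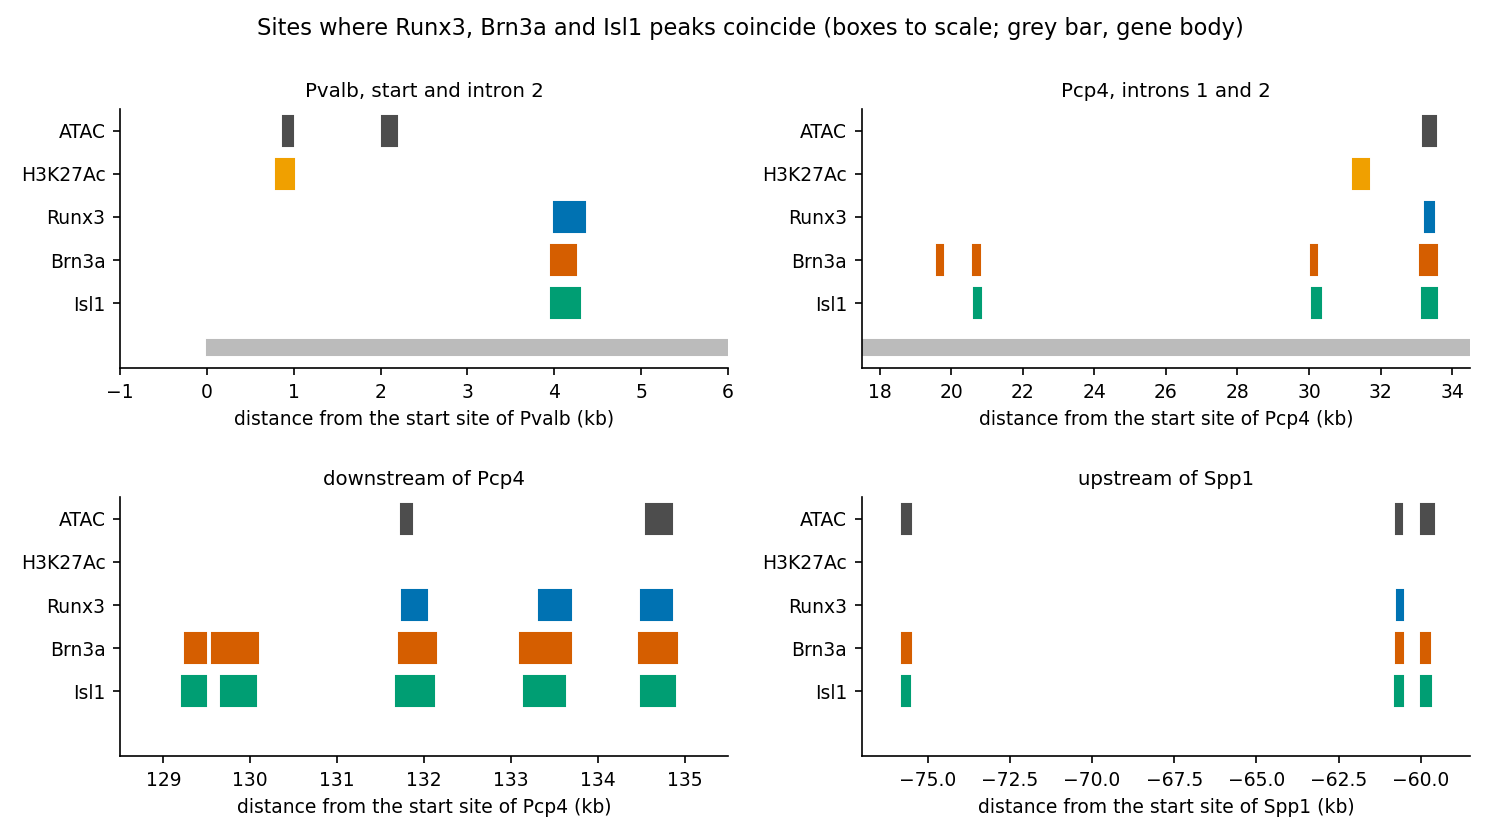
Peaks of the 5 lists (rows) drawn to scale against the distance from the gene's start along transcription (kb, x axis) at 4 places where TFs coincided, with the gene body as a grey bar. At 4.2 kb in *Pvalb* all 3 TFs stand without ATAC or H3K27Ac, at 33.3 kb in *Pcp4* they stand with ATAC, and downstream of *Pcp4* and upstream of *Spp1* Brn3a and Isl1 recur at neighboring sites of which some hold ATAC and none H3K27Ac.

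*Calb1* and *Calb2*, the other calcium-buffer genes, had open starts and almost no TF peaks within 100 kb. For *Calb1* this depends on the window. Its GREAT regulatory domain, which ends at neighboring genes and spans 678 kb, held 9 Brn3a and 2 Isl1 peaks. That of *Calb2* (103 kb) held no TF peak. *Calb1* (chr4:15881264-15908064, plus strand) had a 316-bp ATAC peak over its first exon (chr4:15881085-15881400) and another of 193 bp in intron 2 (chr4:15882367-15882559), neither acetylated. Its Runx3 peak (chr4:15958123-15958335, no RBS) was in the open, acetylated promoter of *Nbn*, a DNA repair gene, and its Isl1 peak (chr4:15790238-15790565) was at an open site 90.9 kb upstream. *Calb2* (chr8:110137502-110168210, minus strand) had a 189-bp ATAC peak at its start (chr8:110168179-110168367) inside an H3K27Ac peak (chr8:110168110-110168470). The only TF peak of its window was Runx3 with 2 RBS at chr8:110217709-110218110, in the open and acetylated promoter of *Cmtr2*, an mRNA cap methyltransferase gene, 49.7 kb upstream. At 4.41 Runx3 peaks per Mb in the window of *Calb1* and 4.33 per Mb in that of *Calb2*, these were the lowest values of the 9.

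*Whrn* (chr4:63414910-63495991, minus strand) lay in the most acetylated window. Its start had ATAC peaks of 328 bp (chr4:63495901-63496228) and 380 bp (chr4:63494899-63495278) with H3K27Ac at chr4:63495258-63496511 and chr4:63494536-63495223, and a further H3K27Ac peak without ATAC (chr4:63461298-63461780) overlapped an exon at an internal start. The window held 21 H3K27Ac peaks, 74.7 per Mb, of which 14 lay outside the gene. In intron 3, Brn3a and Isl1 coincided at chr4:63459126-63459318 in open and acetylated chromatin, without Runx3. The shared stretch is shown because both homeodomain matches overlap in it (chr4:63459129-63459308, plus strand, GRCm38.p6).
Whrn intron 3: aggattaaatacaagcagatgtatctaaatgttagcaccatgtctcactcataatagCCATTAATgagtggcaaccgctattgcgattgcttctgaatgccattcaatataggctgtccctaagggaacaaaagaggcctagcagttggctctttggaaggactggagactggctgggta
Elsewhere in the gene, chromatin was open and acetylated in intron 10, 78.4 kb from the start (chr4:63417442-63417693), and open without H3K27Ac in introns 1 and 8. In intron 1, Runx3 with 1 RBS (chr4:63483529-63483781) and Isl1 (chr4:63483453-63483823) coincided in closed chromatin, 12.4 kb from the start. The 3 Runx3 peaks downstream were unlike each other. The peak at chr4:63370926-63371220 had 3 RBS, H3K27Ac and Brn3a, that at chr4:63401029-63401303 had 4 RBS and nothing else, and that at chr4:63410697-63410864 had no RBS and was open and acetylated. The first and second lie in the body of *Akna*.

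*Crtac1* and *Heg1* had wide, acetylated promoters and open Runx3 peaks in or near the gene. *Crtac1* (chr19:42283035-42431783, minus strand) started in a 504-bp ATAC peak (chr19:42431620-42432123) within 1416 bp of H3K27Ac (chr19:42431436-42432851). In its intron 2, Runx3 with 2 RBS (chr19:42409123-42409550) was alone in open and acetylated chromatin, 22.4 kb from the start. Intron 5 held a pair of open sites (chr19:42315126-42315516 and chr19:42316036-42316221) in 1124 bp of H3K27Ac, 116.1 kb into the gene and without a TF peak. All 3 TFs met 50.7 kb upstream, with Runx3 at chr19:42482342-42482551 and 2 RBS, in closed chromatin. A Runx3 peak without an RBS (chr19:42518660-42518895) lay with Brn3a in the open and acetylated promoter of *R3hcc1l*. Brn3a was at 6 places around *Crtac1* and at none inside it.

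*Heg1* (chr16:33684370-33771576, plus strand) was the only marker with a TF peak in its own promoter. Runx3 with 2 RBS (chr16:33683324-33683566) and Brn3a (chr16:33683345-33683576) coincided 0.9 kb upstream of the start, with a narrow ATAC peak of 85 bp (chr16:33683419-33683503) and H3K27Ac (chr16:33683215-33683550). The start itself was in a 403-bp ATAC peak (chr16:33684376-33684778) within 1555 bp of H3K27Ac (chr16:33683936-33685490). The stretch shared by Runx3 and Brn3a is shown beside the Runx3 peak of intron 1, which had 4 RBS and neither ATAC nor H3K27Ac (chr16:33683345-33683566 and chr16:33694642-33694852, plus strand, GRCm38.p6).
Heg1 promoter: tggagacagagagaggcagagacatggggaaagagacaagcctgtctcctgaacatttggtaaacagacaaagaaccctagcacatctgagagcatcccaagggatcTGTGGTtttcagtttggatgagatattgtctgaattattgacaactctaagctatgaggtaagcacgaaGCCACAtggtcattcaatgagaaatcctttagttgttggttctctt
Heg1 intron 1: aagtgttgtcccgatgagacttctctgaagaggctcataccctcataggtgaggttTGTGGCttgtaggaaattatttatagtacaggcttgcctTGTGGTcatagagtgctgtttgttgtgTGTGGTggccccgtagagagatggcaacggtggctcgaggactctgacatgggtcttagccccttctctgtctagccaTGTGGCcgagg
The Runx3 peak with 2 RBS was the one in open chromatin, and the 4 RBS of intron 1 all run in the same direction, read as TGTGGC at some and as TGTGGT at others. The third Runx3 peak of the window, with 1 RBS (chr16:33820896-33821013) and toward *Itgb5*, was open and overlapped Brn3a. The only Isl1 peak of the window (chr16:33739940-33740043) was in intron 11, open and acetylated, and bore no V$LHXF mark. Intron 8 had an open and acetylated site without a TF peak (chr16:33734668-33734906).

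*Spp1* and *Fxyd7* had no ATAC or H3K27Ac peak in their own promoter or body. Within the 5.93 kb of *Spp1* (chr5:104435118-104441050, plus strand) there was no peak of any list. Its upstream flank, in contrast, held 3 open sites of Brn3a and Isl1, at 75.7, 60.7 and 59.8 kb, and Runx3 without an RBS joined at the middle site (chr5:104374412-104374590). None was acetylated, and the nearest start of a protein-coding transcript was that of *Mepe*, a gene of bone matrix like *Spp1*. The other Runx3 peak (chr5:104508319-104508508, no RBS) was in the promoter of *BC005561*. The shared stretch of the middle site is shown beside the 250 bases before the *Spp1* start in RefSeq (chr5:104374412-104374567 and chr5:104434861-104435110, plus strand, GRCm38.p6), because the site with peaks has no motif letters and the promoter without peaks has an RBS.
Spp1 upstream: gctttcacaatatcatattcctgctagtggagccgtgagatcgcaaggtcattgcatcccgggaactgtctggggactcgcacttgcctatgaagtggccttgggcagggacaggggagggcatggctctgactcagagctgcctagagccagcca
Spp1 promoter: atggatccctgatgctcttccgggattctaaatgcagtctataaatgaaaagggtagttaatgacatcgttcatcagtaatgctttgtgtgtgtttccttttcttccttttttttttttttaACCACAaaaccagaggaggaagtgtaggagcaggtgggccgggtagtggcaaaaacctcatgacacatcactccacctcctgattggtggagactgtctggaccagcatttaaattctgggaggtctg
An RBS is in 45.2% of RefSeq promoters, so a match of this kind is common.

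*Fxyd7* (chr7:31042513-31051467, minus strand) lies in a dense cluster with 11 other protein-coding genes in its window. Of its 17 ATAC peaks, 14 were in promoters of other genes, the closest at *Fxyd1*, 1.3 kb upstream of the *Fxyd7* start (chr7:31052726-31052873). Runx3 lay on both sides of the start. With 2 RBS it was in the promoter of *Fxyd1* (chr7:31053012-31053260), which was open without H3K27Ac. With 1 RBS it was alone in intron 1 of *Fxyd7* (chr7:31049922-31050215), 1.4 kb from the start, without ATAC or H3K27Ac. That peak is shown because it was the only peak of any list inside *Fxyd7* (plus strand, GRCm38.p6).
Fxyd7 intron 1: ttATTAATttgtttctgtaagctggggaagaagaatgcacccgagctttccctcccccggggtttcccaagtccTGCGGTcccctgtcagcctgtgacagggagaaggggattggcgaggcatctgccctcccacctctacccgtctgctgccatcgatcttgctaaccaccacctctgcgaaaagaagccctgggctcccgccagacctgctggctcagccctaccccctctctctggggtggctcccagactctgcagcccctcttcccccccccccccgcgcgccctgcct
Its Isl1 peaks, at chr7:31006820-31006955 and in the promoter of *Lgi4*, were both open and outside the gene.

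**Figure D5:**
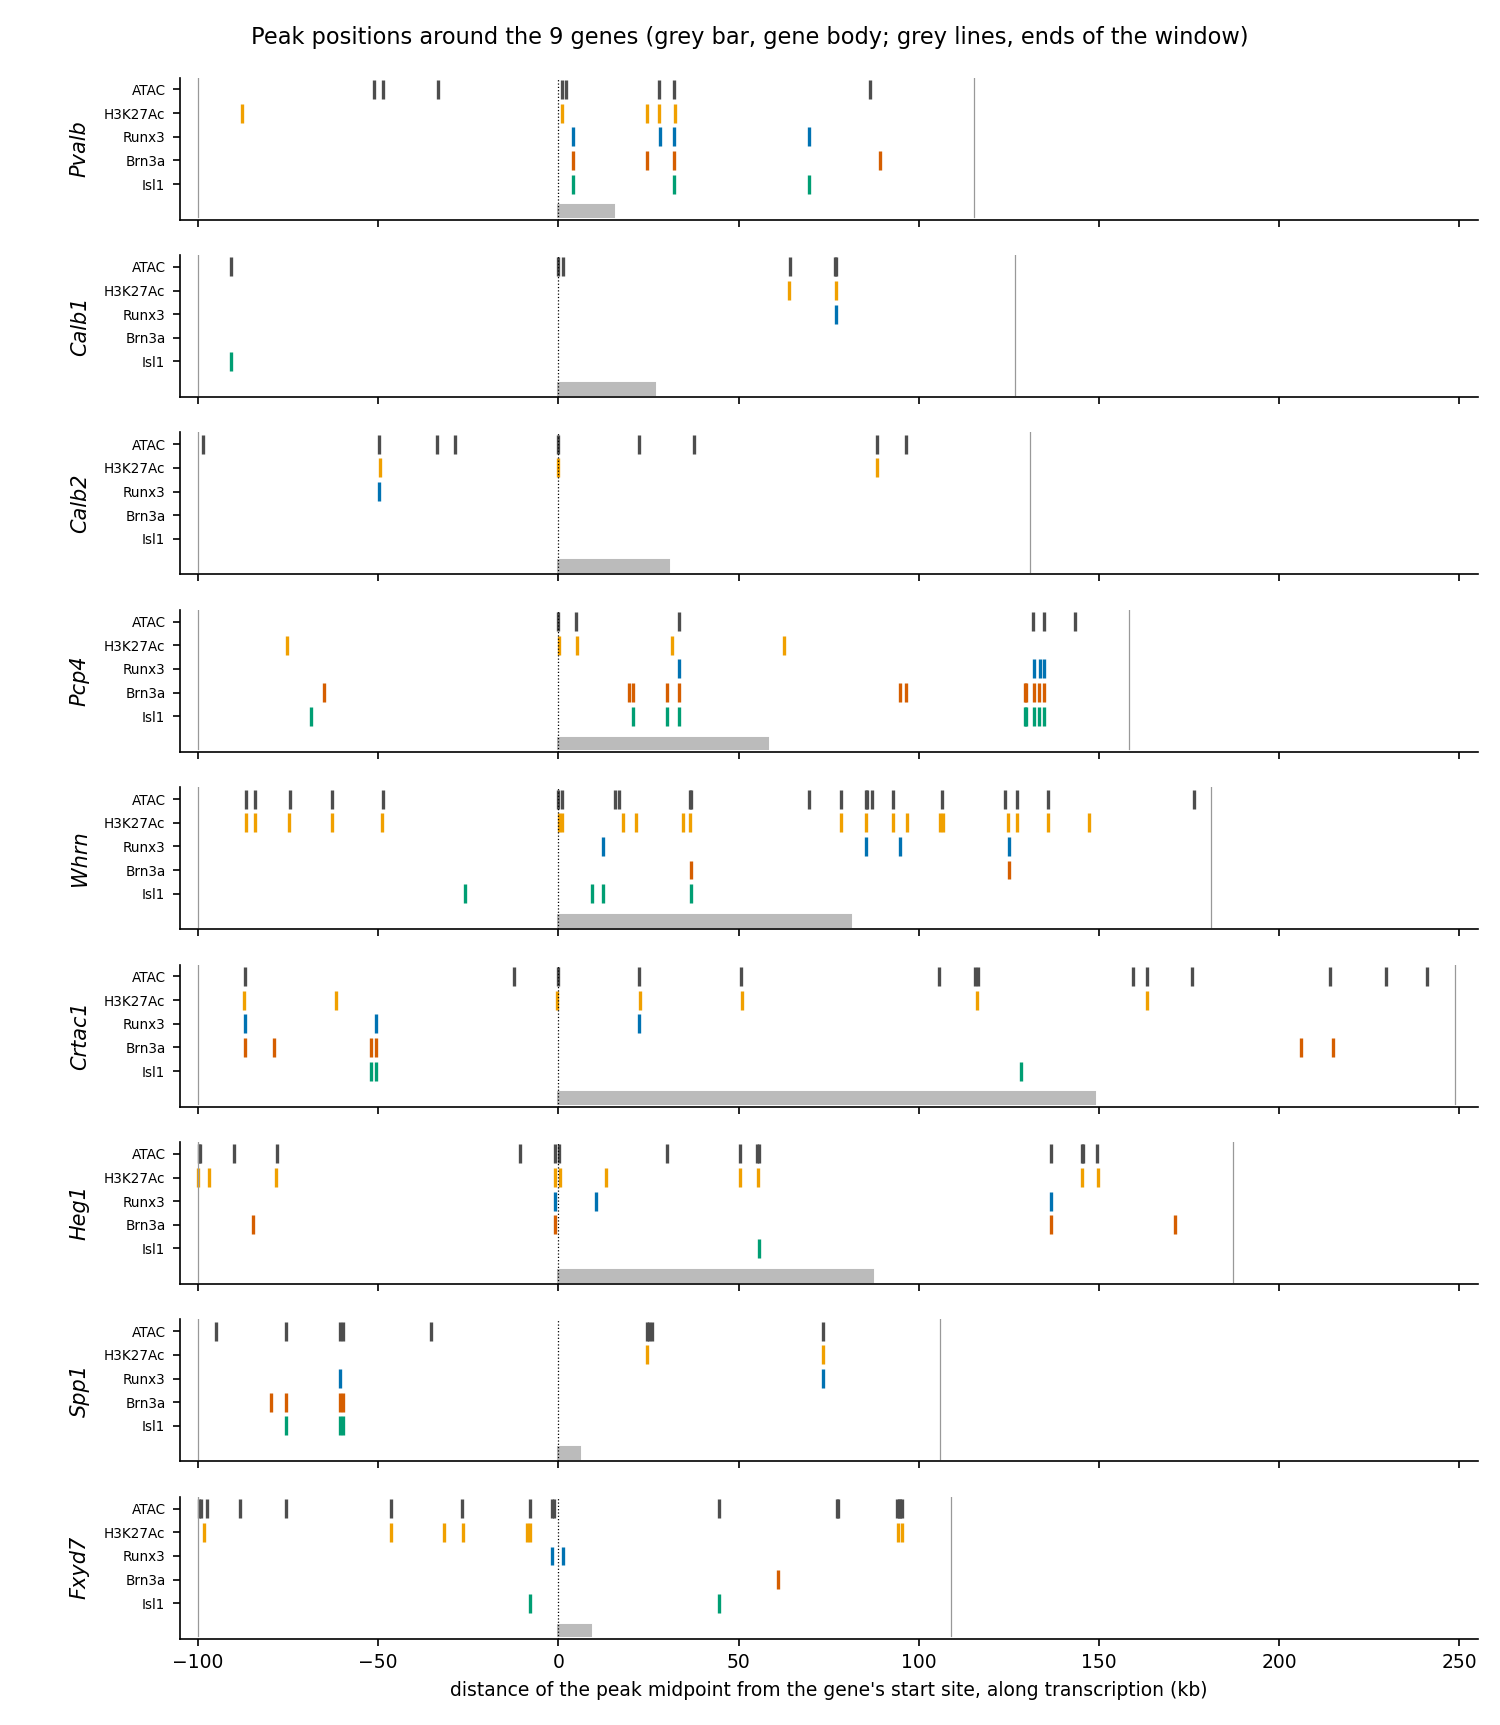
Midpoints of all 252 peaks around the 9 genes (panels), by list (rows of ticks), against the distance from the gene's start along transcription (kb, x axis), with the gene body as a grey bar and the window ends as grey lines. Brn3a and Isl1 ticks stand together downstream of *Pcp4* and upstream of *Spp1*, the windows of *Calb1* and *Calb2* hold 2 and 1 TF peaks, and the body of *Spp1* holds none.

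Joined where they overlapped, the 83 TF peaks made 53 sites, of which 22 were open. In 31 sites a TF was alone, 14 held 2 TFs and 8 all 3. The 8 sites of all 3 TFs were around *Pcp4* (4), *Pvalb* (2), *Crtac1* (1) and *Spp1* (1), so 4 of 9 genes had such a site within 100 kb, where 27.4% of all genes had. Open chromatin was found at 35.5% (21.1–53.1%) of the sites with 1 TF, 42.9% (21.4–67.4%) of those with 2 and 62.5% (30.6–86.3%) of those with 3, and these intervals overlap. Of the 8 sites, 4 had an RBS in the Runx3 peak and 4 had none. The 4 without an RBS were all open, and 1 of the 4 with an RBS was. Over the whole list, 86.8% of Runx3 peaks that overlapped Brn3a and Isl1 and lacked an RBS were open and 75.6% (73.9–77.3%) of those with an RBS, and the 25.0% (4.56–69.9%) of the markers rests on 4 peaks.

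Where a TF was alone, its peaks were compared with such peaks of the whole list. Runx3 peaks without another TF were open in 7 of 10 cases (70.0%, 39.7–89.2%), near the 72.6% of the list. Isl1 peaks without another TF were open in 4 of 8 (50.0%, 21.5–78.5%, beside 22.0%). Brn3a peaks without another TF were open in none of 13 (upper limit 22.8%), and 29.7% of such peaks were open in the whole list. These shares are not like for like. All 13 lay outside promoters, where 16544 of the list's 18716 such peaks lay. The open share of those 16544 alone was not counted. Among all Runx3 peaks of the windows, 15 of 24 were open (62.5%, 42.7–78.8%), beside 77.9% of the list. Fewer of them lay in a promoter of any gene, 29.2% (14.9–49.2%) beside 46.0% of the list. Outside promoters 8 of 17 Runx3 peaks were open (47.1%, 26.2–69.0%), an interval that holds the 62.7% of the list. H3K27Ac with ATAC was at 9 of the 24 (37.5%, 21.2–57.3%, beside 58.0% of the list), and 8 had neither mark (33.3%, 18.0–53.3%, beside 19.2%).

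The share of peaks with the marked motif was near that of the lists. Runx3 peaks had an RBS in 15 of 24 cases (62.5%, 42.7–78.8%, beside 71.4% of the list), Brn3a peaks had V$BRNF in 24 of 33 (72.7% beside 72.1%) and Isl1 peaks V$LHXF in 18 of 26 (69.2% beside 71.4%). Of Runx3 peaks without an RBS 8 of 9 were open and of those with an RBS 7 of 15, and in the list these shares were 91.9% and 72.3%. Outside promoters the 2 kinds of peaks were open in 4 of 5 and 4 of 12 cases, beside 83.1% and 56.6% of the list. Brn3a without V$BRNF was open in 6 of 9 peaks and with it in 5 of 24, beside 73.5% and 35.5% of the list. Isl1 without V$LHXF was open in 5 of 8 peaks (62.5%, 30.6–86.3%) and with it in 7 of 18 (38.9%, 20.3–61.4%). The list ran the other way with 42.5% and 49.0%, but each interval holds the list's share. Runx3 peaks overlapped both other TFs in 8 of 24 cases (33.3%, 18.0–53.3%), Brn3a only in 4, Isl1 only in 2 and neither in 10, where the list had 27.5%, 30.1%, 4.60% and 37.8%. Of these 8 peaks 4 came from *Pcp4*, and without that gene 4 of 20 Runx3 peaks (20.0%, 8.07–41.6%) overlapped both.

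Open sites of the windows away from promoters were acetylated more often than in the list, and the *Whrn* window held 11 of these 26. Of 61 ATAC peaks outside promoters, 26 overlapped H3K27Ac (42.6%, 31.0–55.1%), beside 27.5% of the list. In the *Whrn* window 11 of 17 did, and in the others 15 of 44 (34.1%, 21.9–48.9%), an interval that holds the list's share. A TF peak overlapped 14 of the 61 (23.0%, 14.2–34.9%), beside 30.8% of the list. Of ATAC peaks in any promoter, 32 of 45 were acetylated (71.1%, 56.6–82.3%, beside 79.6%).

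The same counts were made for other genes of DRG neurons. Of 10 further genes of later proprioceptors, 10 had an open promoter and 6 an acetylated one, and Runx3 was in the body or promoter of 2, Brn3a of 6 and Isl1 of 4. *Cdh13* (89 peaks in its window), *Kcna1* (45), *Slc17a7* (41) and *Pou4f3* (33) had the most peaks of that list. Of 8 genes listed as early TrkC neuron genes, whose expression was not measured here, 7 promoters were open and 6 acetylated. Runx3 was in 4 of these genes, Brn3a in 7 and Isl1 in 4, and 6 had a site of all 3 TFs within 100 kb. *Runx3* itself had 250 peaks, where the transgene adds copies of the locus, and *Ntrk3*, the TrkC gene, 75. Open promoters were found in 5 of 9 genes of later nociceptors and 4 of 8 of later low-threshold mechanoreceptors, with 3 acetylated in each, and in 24 of 35 genes of the same families or known partners of the markers, with 18 acetylated. Runx3, Brn3a and Isl1 were in the body or promoter of 3, 6 and 4 of the 9 nociceptor genes, of 2, 4 and 3 of the 8 mechanoreceptor genes and of 12, 15 and 11 of the 35 relatives. The shares with Runx3 and with Isl1 were thus lower in each of these 5 lists than in the 9 markers. For Brn3a the share was higher than in the markers in every list but that of the relatives. That of open promoters was lower in some lists and higher in others. A site of all 3 TFs lay within 100 kb of 2 of the 10 further proprioceptor genes and 3 of the 9 nociceptor genes. The count was 2 of the 8 mechanoreceptor genes and 14 of the 35 relatives, where 27.4% of all genes had such a site. Gene length was not matched between the lists. The windows of *Fxyd1*, *Fxyd3* and *Fxyd5* share peaks with that of *Fxyd7*, as do those of *Mepe* and *Ibsp* with that of *Spp1*. None of these differences was tested, and lists of 8 to 35 genes give wide intervals. With only peaks at least as wide as the median, Runx3 was left in 3 of the 9 markers, and the other lists were not counted with that filter. The markers and the lists were also chosen with earlier results of these data known.

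The cells were checked by the promoters of cell type markers. Of 9 genes of sensory neurons 8 had ATAC and 8 H3K27Ac in the promoter. Neither was found at 6 of 6 myeloid, 4 of 4 erythroid, 5 of 6 endothelial and 3 of 4 muscle genes. Glia and neural crest genes had 4 of 6 promoters open and 2 acetylated, and mesenchyme and bone genes 5 of 6 open and 3 acetylated (*Col1a1*, *Runx2* and *Pdgfra*). What other cells in the sort add to the lists was not tested.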

How the data were processed

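The files hold consensus peaks of E11.5 TrkC neurons on mm10. Per the labels and the study's methods, reads were aligned with Bowtie2 and peaks called with MACS2 in each sample (for CUT&RUN, over the control libraries), and the authors kept ATAC peaks found in at least 2 of 3 samples, H3K27Ac in 3 of 5, Runx3 in 4 of 8, Brn3a in 2 of 2 and Isl1 in 2 of 3. Replicates thus enter as this rule alone, and a region missing from a list may have been below it. Per the methods, peaks mostly within repeat elements and blacklisted peaks were also removed, so a region may be missing for that reason too. The deposited columns are positions, the count of RBS and the marks for V$BRNF and V$LHXF. The lists hold 64227 ATAC, 32655 H3K27Ac, 13443 Runx3, 32823 Brn3a and 16035 Isl1 peaks, and 1 Brn3a peak on the mitochondrial genome was left out. Starts were read as 1-based, because the RBS counted in the sequence then equaled the list for 13443 of 13443 Runx3 peaks (13417 if 0-based).

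Peaks were assigned by midpoint to gene bodies (GENCODE M21) with 100 kb on each side, and promoters were 1 kb on each side of any transcript start. For overlaps, 1 shared bp counted, with narrow peaks first extended about their midpoints (ATAC to 500 bp, the other lists to 300 bp). Distances run from the 5' end of the gene record along transcription. "Open" means overlap with ATAC and "acetylated" overlap with H3K27Ac, and "closed" means only that no listed ATAC peak overlapped. All members are named, Runx3 peaks, own-promoter peaks and shared TF sites in the body are given by position, neighbors by a promoter at such a peak, and list genes by the most peaks, up to 4 (some are not reported here). Other open sites, sites without Runx3 outside the genes and named cell type markers were picked after their values were seen. The members and the lists of relatives, early TrkC neuron, nociceptor, low-threshold mechanoreceptor and other proprioceptor genes and of cell type markers were chosen with earlier results of these data known. No test was run, since the lists hold no values per sample. Sequences were read from GRCm38.p6 and RefSeq tables, in which 6 of the 9 genes had a promoter. Python 3.11.15, pandas 2.3.3 and pysam 0.24.0 were used, and counting was tested on simulated peaks. Other windows, promoters, overlap rules, peak widths and motif filters were tried.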

Additional observations from a re-analysis of the deposited data

How the results depend on the processing

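Of 127 alternative values of 23 counts, 87 stayed close to the value reported and 40 moved. The rule for close was loose. It still took in a fall from 63 to 42 H3K27Ac peaks with 50 kb on each side. It also took in a fall from 9 to 6 genes with Runx3 when the gene body was widened by 1 kb. With 50 kb on each side the windows held 63 ATAC, 15 Runx3, 13 Brn3a and 13 Isl1 peaks, and Brn3a was near 4 genes. With the gene body widened by 1 kb they held 29 ATAC, 21 H3K27Ac, 7 Runx3, 7 Brn3a and 9 Isl1 peaks, with Brn3a in 4 genes and Isl1 in 5. Of the TF peaks left, 3 had ATAC only, 0 H3K27Ac only, 6 both and 14 neither, and the Runx3 peaks overlapped Brn3a only in 1 case, Isl1 only in 1, both in 2 and neither in 3. Giving each peak to the nearest protein-coding start left 33 ATAC, 21 H3K27Ac, 7 Runx3, 11 Brn3a and 10 Isl1 peaks, and the GREAT regulatory domains, which end at neighboring genes, took in 53 Brn3a peaks. With peaks at least as wide as the median there were 52 ATAC, 25 H3K27Ac, 9 Runx3, 19 Brn3a and 17 Isl1 peaks, 4 open and 3 acetylated promoters, and Runx3 in the body or promoter of 3 genes. With the marked motif required, 11 TF peaks had ATAC only, 1 H3K27Ac only and 8 both, and Runx3 overlapped Brn3a only in 0 cases, Isl1 only in 1 and both in 3. The counts within 100 kb thus depend on how a peak is given to a gene. No paired analysis was possible because values of single samples are not in the lists, and for the same reason no replicate could be left out. Depth is unknown, so an absent peak is a region not listed, not one shown to be closed or unbound.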
